A study of Mus musculus with 3 samples.

Results

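The genes described here are 8 that encode the enzymes writing, maintaining and removing 5-methylcytosine in DNA, namely Dnmt1, Dnmt3a, Dnmt3b, Uhrf1, Tet1, Tet2, Tet3 and Tdg. They were chosen by gene symbol in the annotation that accompanies the expression table, and each symbol named 1 locus, so they are 8 of the 48626 loci measured. Total RNA of heart ventricle from C57BL/6 mice was sequenced from both ends at 2 embryonic days, E10.5 and E13.5, and in the 8-week-old Adult, as part of a search for long non-coding RNAs of the developing heart. No genetic alteration or treatment is named for any group, and the sources used here do not say how many hearts went into each library. There was 1 library per stage, so no difference between stages could be checked against replicates or tested. The intervals below are approximate 95% intervals that cover counting error only. They rest on fragment numbers estimated from the smallest steps in the table, about 14.3, 25.6 and 18.3 fragments for a kilobase at 1 FPKM in the E10.5, E13.5 and Adult libraries.

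In mammals, cytosines next to guanines (CpG) are methylated de novo by the enzymes of Dnmt3a and Dnmt3b. After replication the new strand is unmethylated, and Uhrf1 binds such hemimethylated sites and recruits Dnmt1, which copies the mark. The TET dioxygenases oxidise 5-methylcytosine, and the thymine DNA glycosylase encoded by Tdg cuts out the more oxidised bases, after which base excision repair restores cytosine. In the heart, most cardiomyocytes divide in the embryo and leave the cell cycle soon after birth.

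Sequences are shown for the genes whose values the account turns on. The first set is from the promoters of Dnmt1 and Uhrf1, the pair with the largest differences between embryo and Adult. The 300-base windows around the RefSeq starts (250 bases before and 50 after, GRCm38.p6, the assembly of mm10) numbered 13 for the 8 genes. They were searched on both strands for the letters TTTCCCGC, TTTCGCGC, TTTGCCGC and TTTGGCGC, forms of the site known for E2F factors, which drive many genes of DNA synthesis. The Dnmt1 window at the start on chromosome 9, position 20952623, held 2 matches and the Uhrf1 window at chromosome 17, position 56304313, held 1. The other 11 windows of the 8 genes, which include 2 more of Dnmt1 and 1 more of Uhrf1, held none. Of all 32851 RefSeq windows of this length, 744 (2.26%) held a match. The letters contain CpG, and the 2 windows with matches held 33 CpG each, against a median of 7 over all windows. The 2.26% is therefore not the share among windows of like CpG content, which was not counted. In the annotation, 5 of 7 Dnmt1 transcripts start at 20952979 and 8 of 11 Uhrf1 transcripts at 56303337, where the windows held no match. A match is a run of letters and not evidence of binding. The matches are in capitals in these stretches, read 5′ to 3′ on the strand of the gene, the first Dnmt1 stretch at chr9:20952824-20952853 (minus strand), the second at chr9:20952574-20952601 (minus strand) and the Uhrf1 stretch at chr17:56304117-56304146 (plus strand).
Dnmt1, match at position -219 from the start: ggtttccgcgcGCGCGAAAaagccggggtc
Dnmt1, match at position 34 from the start: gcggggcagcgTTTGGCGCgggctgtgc
Uhrf1, match at position -185 from the start: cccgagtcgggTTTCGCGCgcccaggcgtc

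The promoter windows of the 8 genes were mostly rich in CpG. The median over all 32851 windows was 7 CpG. The most CpG was in the Tet2 window, with 57, and the windows at the Dnmt1 start 20952623 and the Uhrf1 start 56304313 held 33 each. Those at the Dnmt1 start 20952979 and the Uhrf1 start 56303337, where most annotated transcripts of these genes start, held 12 each. The 3 Dnmt3a windows held 46, 47 and 18 and the Dnmt3b window 30. The Tdg window held 26, the Tet3 window 22 and the Tet1 window 17. Below the median of all windows lay the 1 at the upstream Dnmt1 start, position 20959888, with 2 CpG.

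The second set is from the coding sequences of Tdg and Uhrf1 in their longest GENCODE M21 mRNAs (GRCm38), because both have unspliced near copies elsewhere in the genome that carry loci of their own in the expression table. Fragments of such stretches cannot be assigned to the gene or to the copy by sequence where the 2 are identical. Bases 24 to 123 of the Tdg coding sequence are identical in the processed pseudogene Gm9855 on chromosome 10, at chr10:42055256-42055355 on the minus strand. Over the 1240 coding bases aligned without gaps, 9 differ between the gene and this copy.
Tdg and its copy on chromosome 10: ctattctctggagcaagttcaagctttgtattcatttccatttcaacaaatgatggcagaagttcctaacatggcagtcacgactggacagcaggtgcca

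Bases 758 to 857 of the Uhrf1 coding sequence differ at 1 base, in capitals, from the processed pseudogene Gm5648 on the X chromosome, at chrX:121336477-121336576 on the minus strand. Over the 1586 coding bases aligned without gaps, 24 differ.
Uhrf1: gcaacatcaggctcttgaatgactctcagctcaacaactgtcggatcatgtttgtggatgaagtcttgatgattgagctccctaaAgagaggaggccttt
Uhrf1 copy on the X chromosome: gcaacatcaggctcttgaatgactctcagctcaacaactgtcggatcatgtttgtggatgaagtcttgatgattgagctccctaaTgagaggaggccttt

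The values are FPKM, fragment numbers scaled to exon length and to the size of the library, which are per length and can be compared between genes. A change is a difference of log2(FPKM + 1). This scale shrinks the differences of low genes. A change is called a rise or a fall where it is 1 or more in size. The reference for every change is the set of 12569 coding loci with at least 1 FPKM in at least 1 library. All 8 genes are in it, and all 8 were above 1 FPKM in every library. With the deposited scaling the median change of this set was 0.17 from E10.5 to E13.5, -0.50 from E13.5 to Adult and -0.40 from E10.5 to Adult. With 1 library per stage, a shift made by the scaling and one in the tissue cannot be told apart. Changes are therefore also given relative to that median. The 3 comparisons share libraries and do not support each other.

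The libraries were checked against markers of cell types, none of them atrial, so ventricle was not checked against atrium. The cardiomyocyte genes summed to 11262 FPKM in the E10.5 library, 17666 at E13.5 and 17394 in Adult. Most of each sum was Myl2, at 7790, 12217 and 11568 FPKM. In Adult, Ttn and the joined locus of Myh6 and Myh7 were listed at 0, which in such a table can be a failed estimate. Of the 5 germ and pluripotent cell markers, Pou5f1 was listed at 0 in all 3 libraries and the list summed to at most 1.19 FPKM. Erythroid markers summed to 6758, 16348 and 24.5 FPKM, epicardial markers to 114, 103 and 9.69, and macrophage markers to 3.67, 16.6 and 90.6, in the same order. Most of the erythroid sum in the embryonic libraries was the globin genes Hba-x, Hbb-y and Hbb-bh1, with Hbb-y at 4356, 15112 and 2.87 FPKM. From E10.5 to Adult 4 of the 5 erythroid markers fell, and Alas2 was no call, at 18.2, 34.1 and 19.6 FPKM. The sums therefore do not give the amount of erythroid cells. In bulk tissue, fewer cells of a type and less RNA per cell cannot be told apart.

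Dnmt1 and Uhrf1, the maintenance pair, were the highest of the 8 genes in both embryonic libraries and fell in Adult. Dnmt1, the maintenance methyltransferase (locus on chromosome 9, 20907206 to 20959888, minus strand), was at 49.2 FPKM in the E10.5 library (interval 47.6 to 50.7), 45.7 at E13.5 (44.5 to 46.8) and 5.54 in Adult (5.08 to 6.02). The level was within a narrow range in the embryo and 8.88-fold lower in Adult than at E10.5 (8.12 to 9.71). On log2(FPKM + 1) Dnmt1 changed by -0.10 from E10.5 to E13.5, which is no call, and fell by 2.84 from E13.5 to Adult.

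Uhrf1, which reads the hemimethylated site (chromosome 17, 56303337 to 56323654, plus strand), was at 51.4 FPKM in the E10.5 library (49.2 to 53.8), 42.8 at E13.5 (41.2 to 44.4) and 1.84 in Adult (1.48 to 2.26). Its Adult level rests on about 89 fragments and was 28.0-fold below that at E10.5 (22.6 to 34.6). Uhrf1 changed by -0.26 on log2(FPKM + 1) from E10.5 to E13.5, no call, and fell by 3.95 from E13.5 to Adult.

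Relative to the median of the coding loci, the fall from E10.5 to Adult was -2.54 for Dnmt1 and -3.81 for Uhrf1. Of the 12569 coding loci, 3.38% had a lower change than Dnmt1 in this comparison and 1.03% a lower change than Uhrf1. Both kept their calls from E13.5 to Adult and from E10.5 to Adult under each rescaling tried.

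The pair moved apart in Adult. The Uhrf1 level was 1.05 times that of Dnmt1 at E10.5 (0.991 to 1.11) and 0.937 times at E13.5 (0.897 to 0.979). In Adult it was 0.332 times (0.265 to 0.415). The ratio within a library does not depend on scaling between libraries, and the Adult interval lies below both embryonic ones.

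The unspliced locus at the Uhrf1 copy on the X chromosome (121335084 to 121336579) was at 17.9 FPKM in the E10.5 library, 12.8 at E13.5 and 0.383 in Adult. Summed with it per length of the gene, Uhrf1 was at 61.6, 50.1 and 2.05 FPKM, and its own locus held 83.5%, 85.5% and 89.4% of the sum. The summed E10.5 level was 30.0-fold above that of Adult, so the fall of Uhrf1 was much the same with and without the copy.

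**Figure D1:**
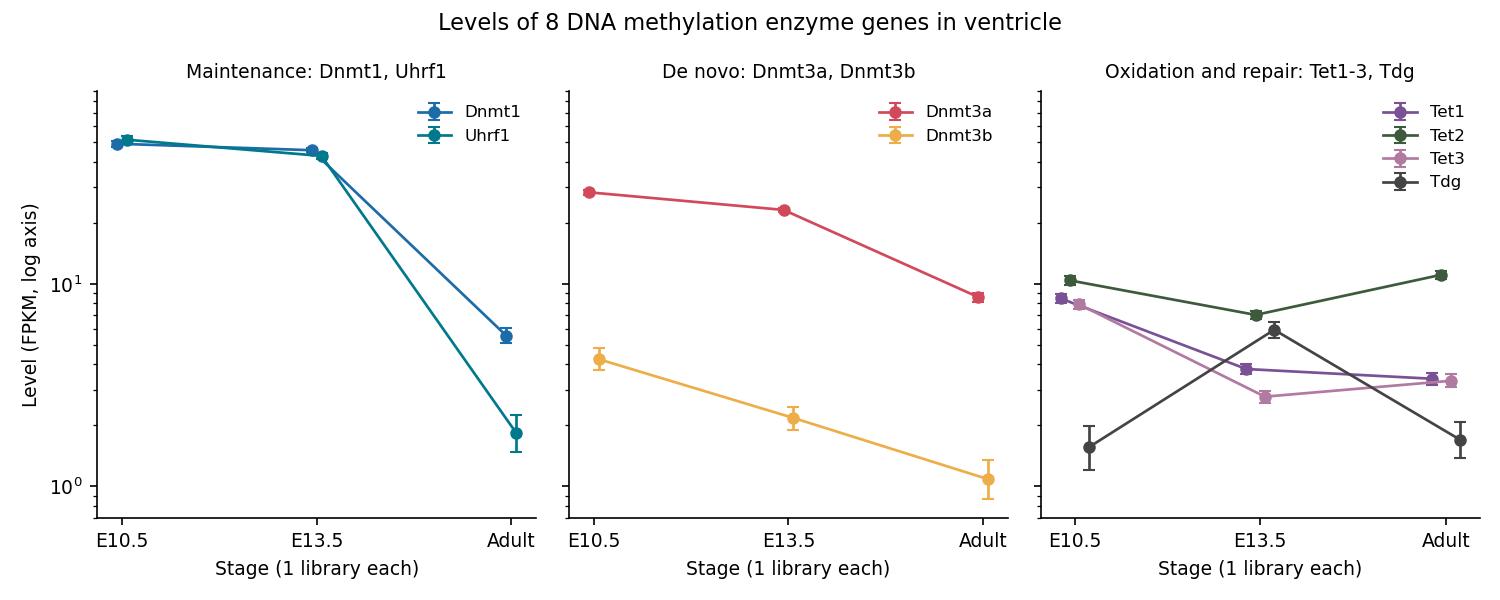
Level of each of the 8 genes (FPKM, log axis) at E10.5, E13.5 and Adult, 1 library per stage, in panels by role, with bars for approximate 95% counting intervals. Dnmt1 and Uhrf1 stay above 40 FPKM in the embryo and separate in Adult at 5.54 and 1.84 FPKM, while Tet2 is at 10.4, 7.03 and 11.1 FPKM.

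The de novo genes also fell between E10.5 and Adult, by less. Dnmt3a, the main de novo methyltransferase of somatic tissue (chromosome 12, 3806574 to 3914858, plus strand), was at 28.3 FPKM in the E10.5 library (27.4 to 29.2), 23.2 at E13.5 (22.6 to 23.8) and 8.60 in Adult (8.18 to 9.04). It ranked 3 among the 8 genes in both embryonic libraries and 2 in Adult. Its Adult level was 3.29-fold below that at E10.5 (3.10 to 3.49). The step from E13.5 to Adult was a fall by 1.33 on log2(FPKM + 1), which became -0.80 with median-of-ratios scaling and was then no call. The long and short forms of the enzyme start at separate promoters, near 3806980 and 3891744, and the locus value adds them.

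Dnmt3b, the de novo enzyme best known from the early embryo (chromosome 2, 153649454 to 153727251, plus strand), was at 4.25 FPKM in the E10.5 library (3.74 to 4.81), 2.18 at E13.5 (1.91 to 2.48) and 1.09 in Adult (0.864 to 1.35). It was low at all stages and lowest in Adult, where about 82 fragments stand behind it. Its change was -0.72 from E10.5 to E13.5 and -0.61 from E13.5 to Adult, neither a call, and it fell by 1.33 over both steps, which became -0.93 relative to the median of the coding loci. The annotated locus reaches into Dnmt3c, a germ line paralog downstream on the same strand, where 89.0% of the aligned bases match Dnmt3b. The value is therefore that of a locus with 1 or both genes in it.

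Within the methyltransferases the balance turned from Dnmt1 to Dnmt3a. Dnmt3a held 34.6% of the summed FPKM of Dnmt1, Dnmt3a and Dnmt3b at E10.5 (Wilson interval 33.6 to 35.7), 32.6% at E13.5 (31.8 to 33.5) and 56.5% in Adult (54.4 to 58.6). Dnmt1 held 60.2%, 64.3% and 36.4% in the same order, and Dnmt3b 5.20%, 3.07% and 7.13%. The level of Dnmt3a was 0.576 times that of Dnmt1 at E10.5 and 1.55 times in Adult (1.41 to 1.71). The sum of the 3 genes was 81.7 FPKM in the E10.5 library, 71.0 at E13.5 and 15.2 in Adult. It was 5.37-fold lower in Adult than at E10.5 as deposited and 4.03-fold lower with median-of-ratios scaling.

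**Figure D2:**
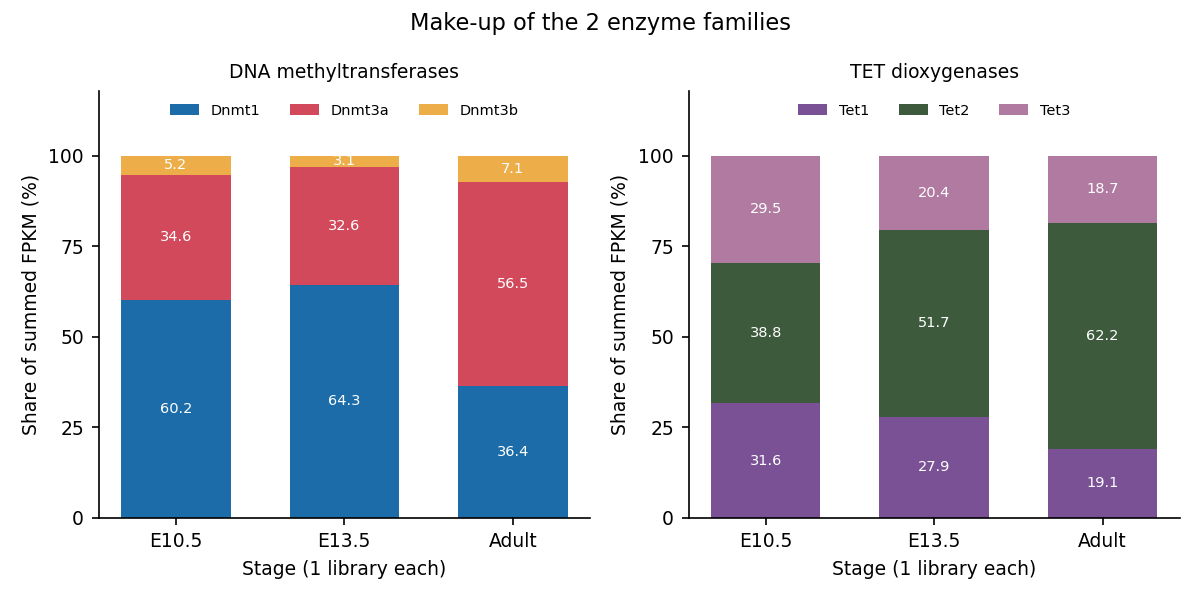
Share of each gene in the summed FPKM of its family (percent) in each library, for the 3 DNA methyltransferases and the 3 TET dioxygenases. Dnmt3a takes 56.5% of the methyltransferase sum in Adult after 34.6% and 32.6% in the embryo, and Tet2 takes 38.8%, 51.7% and 62.2% of the TET sum.

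The 3 TET genes did not move together. Tet1 and Tet3 were highest at E10.5 and Tet2 was highest in Adult. Tet2 (chromosome 3, 133462742 to 133544401, minus strand), the TET enzyme without a CXXC domain, was at 10.4 FPKM in the E10.5 library (9.87 to 10.9), 7.03 at E13.5 (6.71 to 7.36) and 11.1 in Adult (10.6 to 11.6). The E10.5 and Adult intervals overlap and the E13.5 value lies below both. By the values of the own loci, Tet2 ranked 4 among the 8 genes in the embryo and 1 in Adult. Its change from E13.5 to Adult was 0.59 on log2(FPKM + 1), no call, and 1.10 with median-of-ratios scaling, a call. Tet2 is known to be well expressed in blood cells, and all 6 macrophage markers rose from E13.5 to Adult, with sums of 16.6 and 90.6 FPKM. From E10.5 to E13.5, 4 of the 6 rose, with sums of 3.67 and 16.6 FPKM, while Tet2 went from 10.4 to 7.03 FPKM. The erythroid markers summed to 16348 FPKM at E13.5 and 24.5 in Adult. The part of blood cells in the Tet2 value was not tested.

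Tet1, which has a CXXC domain that binds CpG (chromosome 10, 62804570 to 62887412, minus strand), was at 8.47 FPKM in the E10.5 library (8.05 to 8.90), 3.80 at E13.5 (3.59 to 4.02) and 3.40 in Adult (3.17 to 3.65). The level differed between the embryonic stages and little after. The first step was -0.98 on log2(FPKM + 1), just short of a call, and passed it with a value of -1.09 under median-of-ratios scaling. From E13.5 to Adult the value was -0.12 as deposited and 0.32 with that scaling, so its sign is not settled. Tet1 was 2.49-fold lower in Adult than at E10.5 (2.28 to 2.71), a fall by 1.10 on log2(FPKM + 1) that median-of-ratios scaling brought to -0.77.

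Tet3, the TET enzyme known for its role in the zygote (chromosome 6, 83362067 to 83456791, minus strand), was at 7.91 FPKM in the E10.5 library (7.49 to 8.34), 2.77 at E13.5 (2.59 to 2.97) and 3.32 in Adult (3.08 to 3.57). It fell by 1.24 on log2(FPKM + 1) from E10.5 to E13.5, and 2.59% of the coding loci had a lower change. Over the whole span it fell by 1.04, the smallest called change of the 8 genes, which median-of-ratios scaling brought to -0.71. Tet1 and Tet3 had overlapping intervals at E10.5 and in Adult and not at E13.5.

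Tet2 held 38.8% of the summed FPKM of the TET genes at E10.5 (37.4 to 40.3), 51.7% at E13.5 (50.1 to 53.2) and 62.2% in Adult (60.6 to 63.8). The Tet2 level was 1.23 times that of Tet1 at E10.5, 1.85 times at E13.5 and 3.26 times in Adult. The TET sum was 26.8, 13.6 and 17.8 FPKM, lowest at E13.5 under the deposited, the median-of-ratios and the coding-sum scaling. The methyltransferase sum was 3.05 times the TET sum at E10.5, 5.22 times at E13.5 and 0.855 times in Adult.

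Tdg, the glycosylase that removes oxidised methylcytosine (chromosome 10, 82629838 to 82650494, plus strand), was the 1 gene with its highest value at E13.5. It was at 1.56 FPKM in the E10.5 library (1.21 to 1.98), 5.93 at E13.5 (5.40 to 6.50) and 1.70 in Adult (1.38 to 2.08). On its own locus it rose by 1.44 on log2(FPKM + 1) from E10.5 to E13.5, and fell by 1.36 from E13.5 to Adult, which became -0.94 and no call with median-of-ratios scaling. These values rest on about 68, 463 and 95 fragments.

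The Tdg values are uncertain, because the longest GENCODE M21 mRNA gave 6 alignments with 500 or more matching bases outside the gene. Of these, 2 adjoin each other in the same pseudogene on chromosome 19. Gm9855 matched the mRNA at 2864 of 2984 aligned bases (96.0%). The unspliced locus at Gm9855 (chromosome 10, 42052562 to 42055427) was at 17.8 FPKM in the E10.5 library, 1.06 at E13.5 and 0.266 in Adult. A 331-base locus at the copy on chromosome 19 (33673193 to 33673523) was listed at 0 at E10.5 and was at 8.43 FPKM at E13.5 and 1.57 in Adult. Summed with both per length of the gene, Tdg was at 18.3, 7.85 and 2.12 FPKM, and its own locus held 8.52%, 75.6% and 80.2%. On that sum the change from E10.5 to E13.5 was -1.13, against 1.44 on the own locus, and that from E10.5 to Adult was -2.63, against 0.08. How the fragments were divided between the gene and the copies was not tested, so the direction between the embryonic stages is not settled.

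**Figure D3:**
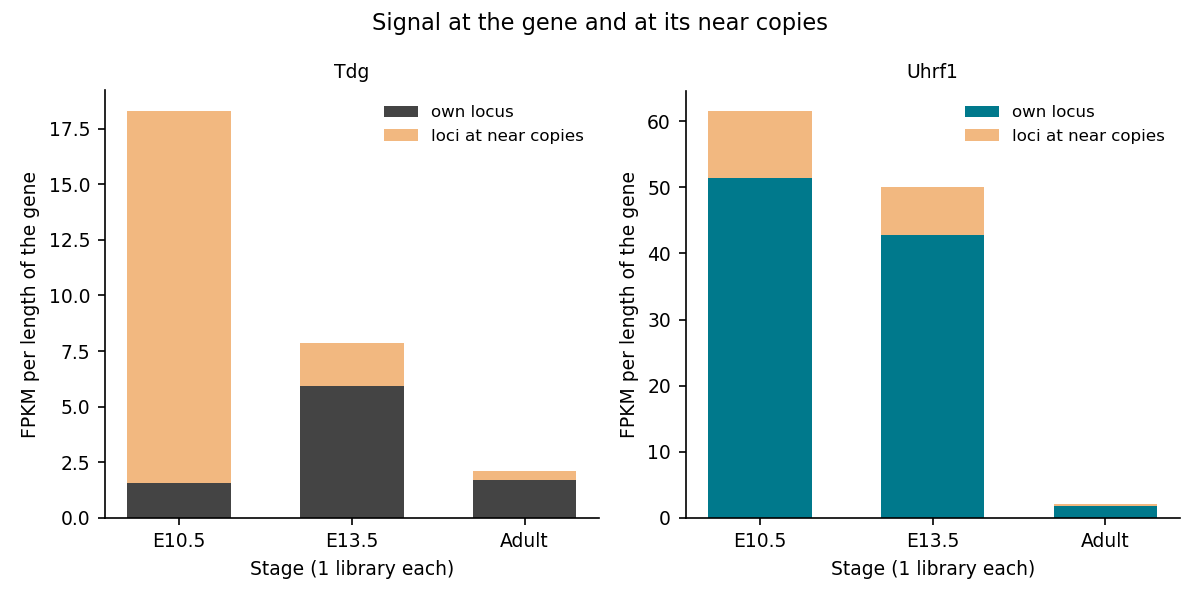
FPKM per length of the gene at the own locus and at the loci of the near copies, stacked, for Tdg and Uhrf1 in each library. For Tdg the own locus holds 8.52% of the sum at E10.5 and 75.6% at E13.5, and for Uhrf1 it holds 83.5% and 85.5%.

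Counted over the 8 genes, 1 rose (Tdg) and 1 fell (Tet3) from E10.5 to E13.5, where 5.89% of the 12569 coding loci rose and 4.85% fell. With median-of-ratios scaling Tet1 also passed as a fall, beside 4.18% and 6.29% of the coding loci. From E13.5 to Adult none rose and 4 fell (Dnmt1, Uhrf1, Dnmt3a and Tdg), beside 13.0% and 32.1% of the coding loci. With median-of-ratios scaling 1 rose (Tet2) and 2 fell (Dnmt1 and Uhrf1), beside 20.8% and 18.9%, and relative to the median of the coding loci the same 1 and 2 were called, beside 21.4% and 17.9%. From E10.5 to Adult none rose and 6 fell (all but Tet2 and Tdg), beside 14.8% and 27.3%. The 6 became 4 with median-of-ratios scaling, without Tet1 and Tet3, where 20.0% of the coding loci rose and 18.4% fell. They became 3 relative to the median of the coding loci, where Dnmt3b also missed the call, beside 20.9% and 16.8%. With a pseudocount of 0.1 and with coding-sum scaling 6 still fell, beside 32.7% and 27.3% of the coding loci. With near copies summed 7 fell, Tdg included, beside 27.3%. The median change of the 8 genes from E10.5 to Adult was -1.22, beside -0.40 for the coding loci.

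**Figure D4:**
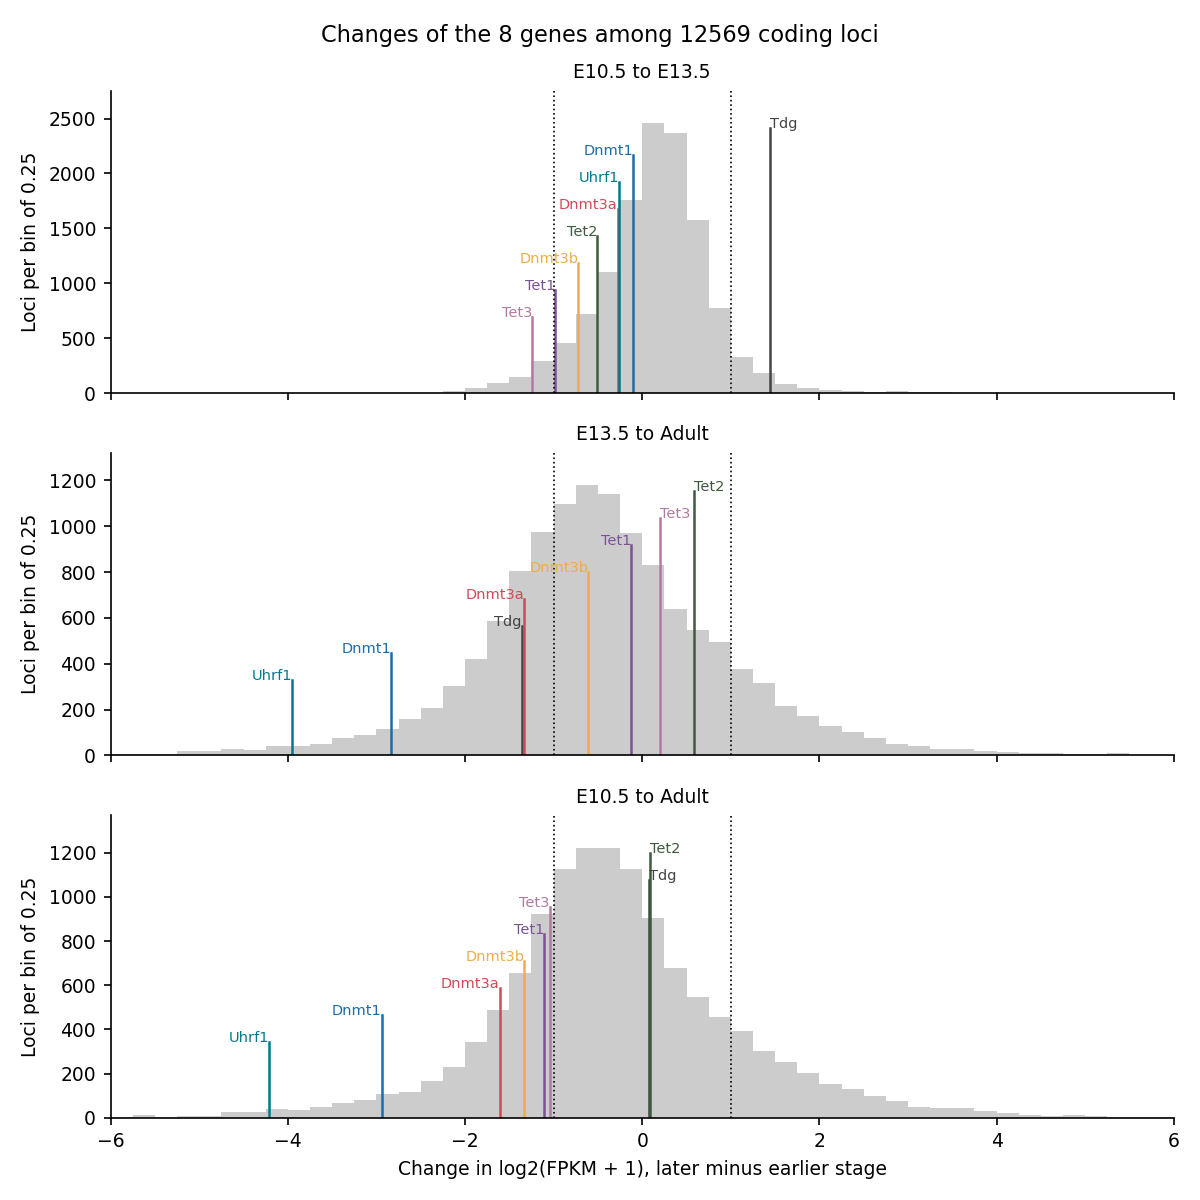
Changes of the 12569 coding loci on log2(FPKM + 1) in the 3 comparisons (grey bars, loci per bin of 0.25), with a line for each of the 8 genes and dotted lines at the call of 1; line heights only separate the names, and loci beyond 6 in size are not drawn. Uhrf1 and Dnmt1 lie far to the left in both comparisons with Adult, at -3.95 and -2.84 from E13.5 and -4.21 and -2.94 from E10.5, and Tet2 lies at 0.59 and 0.08.

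The order of levels changed with stage. At E10.5 it ran Uhrf1, Dnmt1, Dnmt3a, Tet2, Tet1, Tet3, Dnmt3b and Tdg, and the intervals of Uhrf1 and Dnmt1 and those of Tet1 and Tet3 overlapped. At E13.5 it ran Dnmt1, Uhrf1, Dnmt3a, Tet2, Tdg, Tet1, Tet3 and Dnmt3b, and no neighbours overlapped. In Adult it ran Tet2, Dnmt3a, Dnmt1, Tet1, Tet3, Uhrf1, Tdg and Dnmt3b, and the pairs Tet1 with Tet3 and Uhrf1 with Tdg overlapped. The place of Tdg in these orders is that of its own locus and is not settled. Summed with its near copies it was at 18.3, 7.85 and 2.12 FPKM, and the intervals do not cover this. Among the 12569 coding loci, 90.6% had a lower level than Uhrf1 at E10.5 and 18.8% in Adult. For Tet2 these shares were 51.6% and 64.0%.

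The partners of maintenance methylation were lower in Adult too. Of 9 such genes, 7 fell from E10.5 to Adult and none rose, with a median change of -2.99. Among the coding loci 27.3% fell and 14.8% rose, or 18.4% and 20.0% with median-of-ratios scaling. These shares are the reference for the list counts that follow. Hells, a chromatin remodeller needed for methylation, was at 29.1, 28.0 and 1.49 FPKM in the order of the stages. Cdca7, which works with it, was at 16.8, 22.3 and 1.00 FPKM. Dppa3, which keeps Uhrf1 away from chromatin in oocytes, was listed at 0 in all 3 libraries.

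The partners of de novo methylation differed less between stages than those of maintenance. Of 6, 2 fell and none rose, beside 27.3% and 14.8% of the coding loci, so the falls were near that share. Their median change was -0.69, beside -0.40 for the coding loci. The histone methyltransferase genes Ehmt2 and Ehmt1 fell, with changes of -1.78 and -1.19. With median-of-ratios scaling 1 of the 6 fell, since Ehmt1 was at -0.81 and no call, and the median was -0.29. Dnmt3l, the cofactor without catalytic activity, had 0.0998 FPKM in Adult and was listed at 0 at both embryonic stages, and Zbtb24 was at 3.55, 5.56 and 4.30 FPKM.

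Of 8 genes listed with the readers of methylated CpG, 1 rose and 2 fell, near the 14.8% and 27.3% of the coding loci. The median change was -0.09. With median-of-ratios scaling 3 rose (Mbd2, Zbtb38 and Zbtb4) and 1 fell (Mbd3), beside 20.0% and 18.4%. The median was then 0.29. Zbtb4 rose by 1.06, from 2.78 FPKM in the E10.5 library to 6.87 in Adult. Mbd3 and Mbd4, the latter a glycosylase that acts on the same mismatches as Tdg, fell, with changes of -1.78 and -1.26, of which that of Mbd4 was -0.94 and no call with median-of-ratios scaling. Zbtb38 was at 10.4, 12.1 and 17.9 FPKM.

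On the removal side, 1 of 13 genes listed with base excision repair rose and 7 fell, beside 14.8% and 27.3% of the coding loci. The median change was -1.59. Neil3, a glycosylase of dividing cells, fell by 3.19 and Apex1, the endonuclease that acts after Tdg, fell by 2.14, from 82.6 to 17.9 FPKM. The list also holds Gadd45a, Gadd45b and Gadd45g, whose products are not repair enzymes. Gadd45a was the 1 rise, by 1.15, and Gadd45b and Gadd45g fell, with changes of -1.63 and -1.85. Neil1 was at 0.796, 1.98 and 1.71 FPKM.

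Of 8 genes that supply or bind TET enzymes, 3 rose and 1 fell, beside 14.8% and 27.3% of the coding loci. The median change was -0.02. With median-of-ratios scaling 3 rose and none fell, beside 20.0% and 18.4%, and the median was 0.39. Idh2, whose enzyme makes the TET cosubstrate 2-oxoglutarate in mitochondria, rose by 1.25, from 380 to 903 FPKM. D2hgdh, which clears a metabolite that inhibits TET enzymes, rose by 1.34. Cxxc5 fell by 1.23, which became -0.86 and no call with that scaling, and Cxxc4 was at 2.73, 1.89 and 1.21 FPKM.

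Of 9 genes of methyl donor supply, 1 rose and 3 fell, near the 14.8% and 27.3% of the coding loci. The median change was -0.55, beside -0.40 for the coding loci. With median-of-ratios scaling the median of the list was -0.14. Mtr, the methionine synthase, rose by 1.63, from 14.6 to 47.2 FPKM, and Shmt1 of the folate cycle fell, with a change of -2.21.

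All 17 DNA replication genes and all 8 proliferation genes fell from E10.5 to Adult, beside 27.3% of the coding loci. The median changes were -3.20 and -5.11. Rrm2 and Mcm2 led the first list, with changes of -5.24 and -4.09, and Ccna2 and Birc5 the second, with -6.01 and -5.61. The FPKM fold from E10.5 down to Adult had a median of 16.7 in the replication genes, and 3 of the 17 had a smaller fold than the 8.88 of Dnmt1. By contrast, 14 of the 17 had a smaller fold than the 28.0 of Uhrf1. The Mcm6 locus, with the smallest fold of 2.83, also holds the gene Dars. Without it the counts were 2 of 16 and 13 of 16, and the median fold was 17.1. In the proliferation genes the median fold was 111 and none of the 8 was below that of Uhrf1. The part of dividing cells in the values of Dnmt1 and Uhrf1 was not tested.

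**Figure D5:**
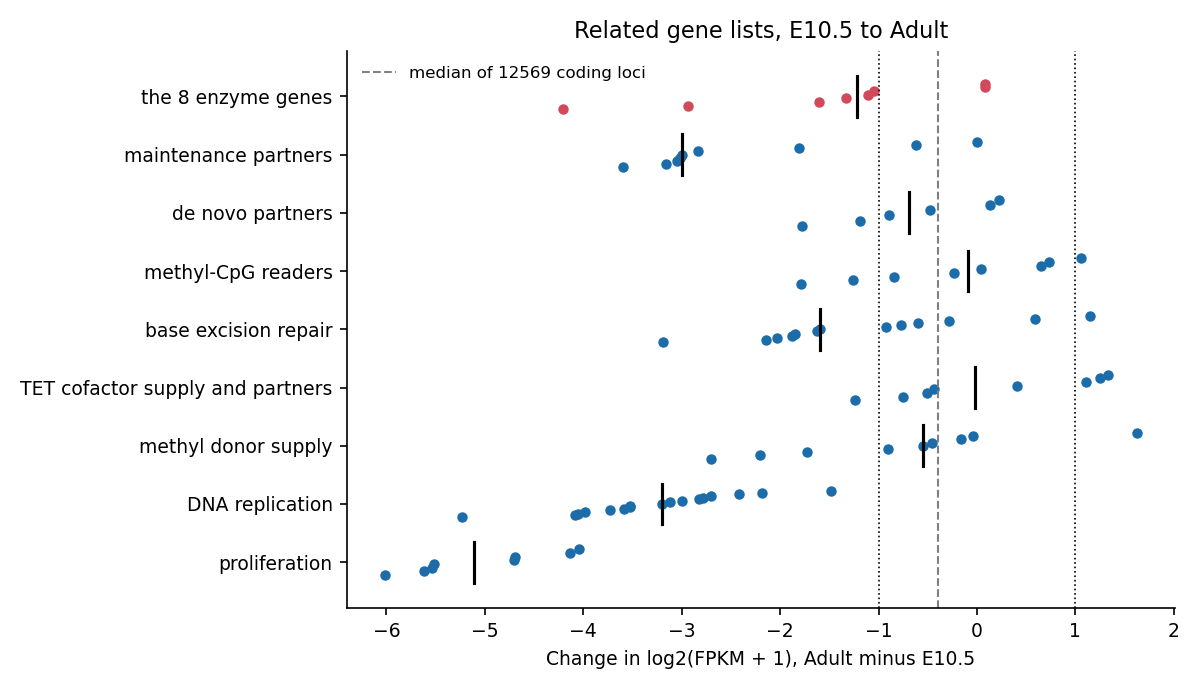
Change from E10.5 to Adult on log2(FPKM + 1) of each gene (points) in the 8 related lists and the 8 enzyme genes, with the median of each list (bar), the median of the 12569 coding loci (dashed line, -0.40) and the call of 1 (dotted lines). The replication and proliferation lists lie wholly left of -1. The medians of the reader list and the TET cofactor list lie at -0.09 and -0.02. These medians turn to 0.29 and 0.39 with median-of-ratios scaling.

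The coding loci most like Dnmt1 and Uhrf1 in profile were found by the distance between centred log2(FPKM + 1) values over the 3 libraries. For Dnmt1 they were Cdc7, a kinase of replication origins, at 19.5, 17.5 and 1.64 FPKM, then Zfp57 and F2r. For Uhrf1 they were the cyclin genes Ccnf, at 19.7, 18.1 and 0.225 FPKM, and Ccne2, at 47.0, 45.3 and 1.82 FPKM, then Arxes2. With 3 points the likeness is loose, since 282 loci lay within 0.5 of Dnmt1 and 76 of Uhrf1. The other 6 genes varied by less than 2 over the stages and were not given neighbours.

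The gene models of the 8 loci were well supported by the reference. All 152 introns of their reference-equal transcripts are in GENCODE M21, as are 151 of the 163 introns of their assembled transcripts. The expression table gives 1 value per locus, so start sites were not resolved. B230319C09Rik, an opposite-strand transcript that starts 77 bases from the reference start of Tet3, was at 0.0966, 0.0340 and 0.137 FPKM. Further loci inside the Tet3 span on its own strand, all unspliced, were between 0.405 and 3.28 FPKM. An unnamed opposite-strand locus 544 bases from a Dnmt3a start was at 0.545, 0.693 and 0.0946 FPKM, and Gm10485 inside Dnmt3a was listed at 0 in all 3 libraries. An unnamed unspliced locus inside Tet1 was at 1.28, 0.121 and 0 FPKM, and Glt8d2, whose end overlaps that of Tdg on the other strand, was at 0.544, 1.67 and 0.863 FPKM.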

How the data were processed

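The authors mapped paired-end reads of stranded total RNA libraries to mm10 with TopHat2 on Bowtie and built transcripts with Cufflinks, in runs with and without a UCSC annotation. The authors deposited FPKM values by merged locus for each library and an annotation of the merged transcripts. Versions, options and the treatment of multiply mapped fragments are not given in the sources used here. Each of the 3 columns bears the name of 1 library and stage.

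Changes were differences of log2(FPKM + 1) between single libraries, called at 1 or more in size, and no test was possible. The genes and gene lists were chosen with earlier results of these data known. All 8 genes are described. From each related list the 2 largest rises and 2 largest falls from E10.5 to Adult are named (only falls where no gene rose), with Dppa3 added after its values were seen. Of the genes this rule names, 1 is not reported here. Profile neighbours are the 3 nearest coding loci of a gene with a range of 2 or more, and loci overlapping a gene or starting within 3000 bp of its start are named. Fragment numbers were estimated from the smallest steps of FPKM times length in unspliced loci of 1000 bases or more, and 95% Poisson, Wilson and log-ratio intervals rest on them and are approximate. GENCODE and RefSeq sequences were used, with all 8 genes matched in the RefSeq promoters of GRCm38.p6, and the longest GENCODE M21 mRNA of each gene was aligned to GRCm38 with minimap2 2.31. Alternatives were a pseudocount of 0.1, median-of-ratios scaling (factors 1.07, 1.19 and 0.804), scaling to the coding sum without globin and mitochondrial genes (0.934, 1.16 and 0.923), a call at 2, other filters on low values, joined loci left out and shares of fragments. Near copies of at least 95% identity summed, the median of the coding loci subtracted and Tdg left out were added after seeing the data. The calling step was tested on simulated data with planted changes, which checks the code and not these libraries. Python 3.11.15, numpy 2.4.6, pandas 2.3.3, pysam 0.24.0 and matplotlib 3.10.9 were used.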

Additional observations from a re-analysis of the deposited data

How the results depend on the processing

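No paired analysis was possible because no stage has more than 1 library. With the call at 2, the genes called were 0 from E10.5 to E13.5, and 2 in both comparisons with Adult (Dnmt1 and Uhrf1). This follows from the stricter call. With the median of the coding loci subtracted, 3 were called from E10.5 to Adult, and without Tdg 1 was called from E10.5 to E13.5. The other 25 recounts of the 8 genes stayed within 1.5 times the main count in total, which hides moves between directions: from E13.5 to Adult, 4 falls became 2 falls and 1 rise with median-of-ratios scaling and with the median subtracted, and from E10.5 to E13.5, 1 rise and 1 fall became 2 falls with near copies summed. The change of Tdg from E10.5 to E13.5 reversed to -1.13 with the near copies summed, and the cause was not tested. As a share of fragments (FPKM times union exon length) and not of FPKM, Dnmt3a held 46.9%, 44.6% and 68.7% of the methyltransferase sum at E10.5, E13.5 and Adult, since its transcripts are longer, while the shares of Tet2 stayed within their counting intervals. Depth limits Tdg at E10.5, with about 68 estimated fragments, and Dnmt3b, Uhrf1 and Tdg in Adult, each with under 100. The spread between animals is unknown at every stage.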
